A study of Mus musculus with 2 samples.

Results

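Müller glia are the radial support cells of the retina. The 103 barcodes described here came from 2 droplet single-cell RNA libraries of mouse retina, out of 3670 barcodes that passed the quality limits. A barcode stands for 1 droplet and, if nothing went wrong, for 1 cell. Barcodes were chosen by their own counts: a barcode was taken when it held at least 500 UMIs (unique molecular identifiers, each counting 1 captured RNA molecule), at least 300 genes and at most 15% mitochondrial UMIs. At least 4 of Rlbp1, Clu, Dkk3, Aqp4, Slc1a3, Car14 and Kcnj10 had to be detected, these 7 together had to reach 0.3% of the barcode's UMIs, and C1qa, C1qb and C1qc, complement subunits made by microglia, could reach at most 2 UMIs in sum. The rule took 64 of 1347 barcodes from the PBS library and 39 of 2323 from the MSC-sEV library.

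Both libraries came from C57BL/6 mice aged 6 to 8 weeks, taken 2 weeks after optic nerve injury, so that injury was common to both. One library was from mice given PBS, the vehicle, and the other from mice given MSC-sEV, a name the labels do not spell out. Retinas of 6 mice were pooled for each library, the tissue was digested with papain, and CD45 microbeads, which bind leukocytes, enriched immune cells. The labels call the cells retina immune cells, so the Müller glia are cells that came through an enrichment aimed at other cells. Each condition is 1 library of pooled mice, so no test between mice was possible: intervals are 95% exact intervals that cover counting error only, barcodes are not replicates, and fewer transcripts per cell cannot be told apart from a different choice of cells.

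Müller glia span the whole retina and wrap its neurons. They clear glutamate and ammonia through the transporter encoded by Slc1a3 and the glutamine synthetase encoded by Glul, move water and potassium through Aqp4 and Kcnj10, and return retinoid to cones with the binding protein encoded by Rlbp1. After injury they take up a reactive state, known for intermediate filament, complement and acute phase genes, and they respond to interferons with guanylate binding proteins, immunity-related GTPases and the MHC class I machinery.

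The label was checked against genes that the rule did not use. Glul had a UMI in all 64 PBS and all 39 MSC-sEV barcodes, Apoe, the main lipid carrier of glia, likewise in all 64 and all 39, and the structural filament gene Vim in 53 and 34. The median depth was 7152 UMIs in PBS (513 to 44205) and 4139 in MSC-sEV (563 to 41644), and 605425 and 373048 UMIs were summed in all. The microglial markers other than C1q were low but not absent: over 14 genes the sum was 330 CPM (UMIs of a gene per 1000000 UMIs of the summed barcodes) in PBS and 582 in MSC-sEV, with 0.352% of a barcode's UMIs as the highest value in PBS and 0.649% in MSC-sEV. Most of that was Ctsd, a lysosomal protease found in many cells, with 114 and 148 UMIs. The microglial receptor genes Cx3cr1 and P2ry12 had 3 and 2 UMIs in PBS and the same in MSC-sEV, Tmem119 had 3 and 0, and the leukocyte gene Ptprc had 0 and 2. Rod photoreceptor markers were present in nearly all barcodes, at a median of 0.734% of UMIs in PBS and 0.366% in MSC-sEV.

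A few barcodes carried the markers of another cell as well. In the MSC-sEV library, 1 barcode of 13983 UMIs held 1209 of the 1210 UMIs of Ttr and all 43 of Rpe65, genes of the retinal pigment epithelium, with only 7 UMIs of Glul. It also held 1323 of 1389 UMIs of Ptgds and 569 of 896 of Trf, so those genes are given without it. In the PBS library, 1 barcode of 44205 UMIs held 79 of the 86 UMIs of the cone opsin Opn1mw. The 10 cone markers summed to 844 CPM in PBS and 69.7 in MSC-sEV. No barcode sequence occurred in both libraries.

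Some PBS barcodes looked like copies of one another. Among the 79 PBS barcodes with Müller markers and at least 2000 UMIs, with or without C1q, 47 of 2039 pairs differed by a mean chi-square per gene of at most 1.4, where 1 is the sampling noise of 2 draws from 1 pool. The lowest value was 1.02 and the median over pairs was 4.99. These pairs joined 31 barcodes into 7 groups. Of them, 25 were outside the rule for their C1q and 6 were inside it: 4 with the rod bipolar gene Pcp2, at 11 to 22 UMIs each, and a further pair of 12013 and 10048 UMIs. Among 540 MSC-sEV pairs there was none, and the lowest value was 1.53. The limit of 1.4 was chosen after seeing the data, and where the copies came from was not tested. Keeping 1 barcode per group left 60 PBS barcodes, and the values that this moved are given beside the results.

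Müller glia were 4.75% of the PBS barcodes (95% exact binomial interval 3.68% to 6.03%) and 1.68% of the MSC-sEV barcodes (1.20% to 2.29%). The share in MSC-sEV was 0.353 of that in PBS, and 0.377 with 1 barcode per group of copies. Barcodes with Ptprc or more than 2 C1q UMIs were 265 (19.7%) in PBS and 932 (40.1%) in MSC-sEV. A larger leukocyte fraction lowers every other share. Taken relative to the other 1082 PBS and 1391 MSC-sEV barcodes, Müller glia in MSC-sEV were at 0.474 of the PBS level. CD45 enrichment sets the mix, and its part in the remaining difference was not tested.

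The edge of the rule was thin. Of the PBS barcodes inside it, 29 had no C1q UMI, 16 had 1 and 19 had 2, and just outside 3 had 3 UMIs and 1 had 4. In MSC-sEV the numbers were 14, 12 and 13 inside, with 5 at 3 and 3 at 4 outside. The limit is a fixed number of UMIs whatever the depth. The 31 PBS barcodes left out for C1q had a median depth of 12915 UMIs and a median of 69 C1q UMIs, and the 18 of MSC-sEV 39516 and 5. The lowest share of the 7 rule genes inside was 0.312% in PBS and 0.314% in MSC-sEV, and the highest outside was 0.292% and 0.150%.

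Against PBS, levels of interferon-induced genes in MSC-sEV Müller glia were higher, as were those of the genes that load and present peptides on MHC class I and of part of the acute phase and reactive gene set, while those of Glul and Spc25 were lower. Of 3505 genes with at least 50 UMIs over both groups, 83 (2.37%) were at least 2-fold higher and 54 (1.54%) at least 2-fold lower in MSC-sEV. Over the 6877 genes with at least 20 UMIs the shares were 4.55% and 4.62%, and the median log2 ratio was -0.03. The gene lists below were chosen with earlier results of these data known. Their shares beside those of all genes are therefore a description and no test of the lists. The counts were 89 higher and 51 lower with 1 barcode per group of copies.

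**Figure D1:**
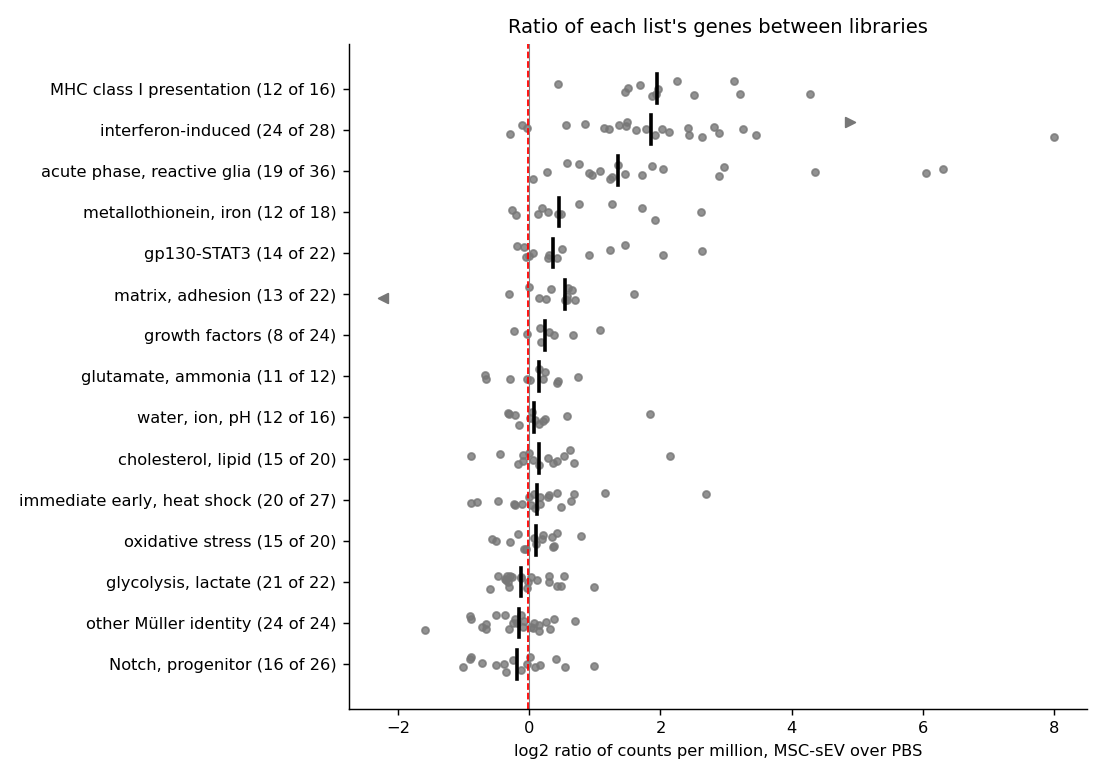
Log2 ratio of CPM, MSC-sEV over PBS, for the genes of 15 lists with at least 20 UMIs (number measured of number listed beside each name). Points are genes, left- or right-pointing triangles are genes with no UMI in one library, set at a floor of 3 UMIs, black bars are list medians and the dashed red line is the median over 6877 genes. The MHC class I, interferon and acute phase lists have medians of 1.95, 1.85 and 1.35, and the other lists drawn lie between -0.20 and 0.54. Of 23 lists, some are not drawn. Among those, complement and its regulators had a median of 1.99 (5 measured), MHC class II 3.95 (1 measured) and chemokines and cytokines -0.46 (3 measured). The rest of those not drawn lay within the range above.

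Of 28 interferon-induced genes, 24 had at least 20 UMIs, and 19 of those were at least 2-fold higher in MSC-sEV and none 2-fold lower, against 4.55% of all genes higher. Their median log2 ratio was 1.85, and it was 1.58 without the richest barcode of each library for each gene. In this and later ratios without the richest barcodes, their UMIs of the gene were left out but their depth stayed in the totals. The minimum of 20 UMIs was on the sum of both libraries, for every list and for all genes. Some members passed it only through their MSC-sEV UMIs, such as Gbp2 and Irf1 here and Tap1 below. Gbp2, a guanylate binding protein that acts on membranes of intracellular pathogens, had 1 UMI in the PBS and 158 in the MSC-sEV library, or 1.65 and 424 CPM, a ratio of 256 with an interval from 45.4 to 10191. The MSC-sEV UMIs of Gbp2 came from 17 of 39 barcodes, but 86 of them from 1 barcode. In the barcodes with Müller markers left out for their C1q, Gbp2 was close to level between libraries, as the last paragraph gives. Most of its PBS UMIs there were in 1 barcode. With each barcode thinned to 1000 UMIs, which left out 8 PBS and 6 MSC-sEV barcodes that were shallower, Gbp2 was seen in 0 of 56 PBS barcodes, which allows up to 5.36%, and in 24.2% of 33 MSC-sEV barcodes. In rod-rich barcodes, which should lack it, thinned Gbp2 was seen in 0% in PBS and 0.875% in MSC-sEV. Unthinned, Gbp2 was seen in 1.56% and 43.6% of Müller barcodes and 0.210% and 1.79% of rod-rich barcodes, whose median depths were 2177.5 and 2432 UMIs.

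The immunity-related GTPases, which attack vacuoles around intracellular pathogens, showed the same direction. Irgm1 had 16 UMIs in the PBS and 108 in the MSC-sEV library, a ratio of 11.0 (6.45 to 19.8), and Igtp 19 and 112, a ratio of 9.57 (5.85 to 16.5). Iigp1 had no UMI in PBS and 55 in MSC-sEV over 8 barcodes. The ratio was 29.8 with PBS set at a floor of 3 UMIs over the group, and its exact counting interval started at 23.4. Gbp7 rested in part on 1 barcode: its ratio was 7.03 (4.94 to 10.2) with 102 of its 169 MSC-sEV UMIs there, and 3.30 without the richest barcodes. Irf1, a transcription factor induced by interferon, had 9 and 41 UMIs, a ratio of 7.39 (3.54 to 17.3).

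Ifit3, an RNA-binding antiviral protein, had a ratio of 2.19 (1.61 to 3.00), Ifit1 of the same family 4.38 (2.58 to 7.73), and Isg15, a ubiquitin-like modifier, 3.45 (2.08 to 5.86). The directions of these 3 depended on the C1q limit: with no limit their log2 ratios were -0.89, -0.14 and -0.35. The factors Irf7 and Irf9, which carry type I interferon signalling, had ratios of 0.927 (0.337 to 2.37) and 0.811 (0.406 to 1.56), with both intervals spanning 1.

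Of 16 genes of MHC class I presentation, 12 had at least 20 UMIs. All 12 were higher in MSC-sEV and 11 at least 2-fold, against 4.55% of all genes. B2m, the light chain shared by all class I molecules, had 156 UMIs in PBS (258 CPM) and 368 in MSC-sEV (986 CPM), a ratio of 3.83 (3.17 to 4.65). Tap1, one subunit of the pump that brings peptides into the endoplasmic reticulum, had 4 and 48 UMIs, a ratio of 19.5 (7.13 to 74.4). The immunoproteasome subunits Psmb9 and Psmb8, which change how peptides are cut, had ratios of 8.70 (4.53 to 18.4) and 4.74 (3.25 to 7.05). H2-T23, a non-classical class I chain, had a ratio of 9.31 (5.69 to 16.1). The classical chain H2-K1 had a ratio of 3.21 (2.51 to 4.13).

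Part of this was also seen in other barcodes of the same libraries. In rod-rich barcodes B2m was 34.9 CPM in PBS and 120 in MSC-sEV, H2-K1 25.7 and 70.6, and Psmb8 7.11 and 27.6, ratios of 3.43, 2.75 and 3.89. The list medians in rod-rich barcodes were 1.25 for MHC class I and 0.62 for interferon. The levels in rod-rich barcodes were below those in Müller glia for each of these genes. Free RNA in the droplets was not tested as a source. The myeloid marker lists also moved: 13 monocyte and macrophage markers summed to 19.8 CPM in PBS and 164 in MSC-sEV, with at most 0.161% and 0.260% of a barcode's UMIs. The 10 dendritic cell markers summed to 9.91 and 172 CPM, at most 0.0199% and 0.0728%, with Cd209a, Ccr7, Xcr1 and Itgax at 0 in both libraries and MHC class II genes such as Cd74 (0 and 23 UMIs) giving the rest. Of the 13 monocyte and macrophage markers, 10 were at 0 in PBS and 4 in MSC-sEV, the 4 being Ccr2, Ly6c2, Ms4a7 and Mrc1, at 0 in both libraries. Gpnmb had 0 and 11 UMIs, Chil3 0 and 9, Arg1 0 and 7, and Lyz2 4 and 10. The part of these cells in the higher class I and interferon levels was not tested.

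**Figure D2:**
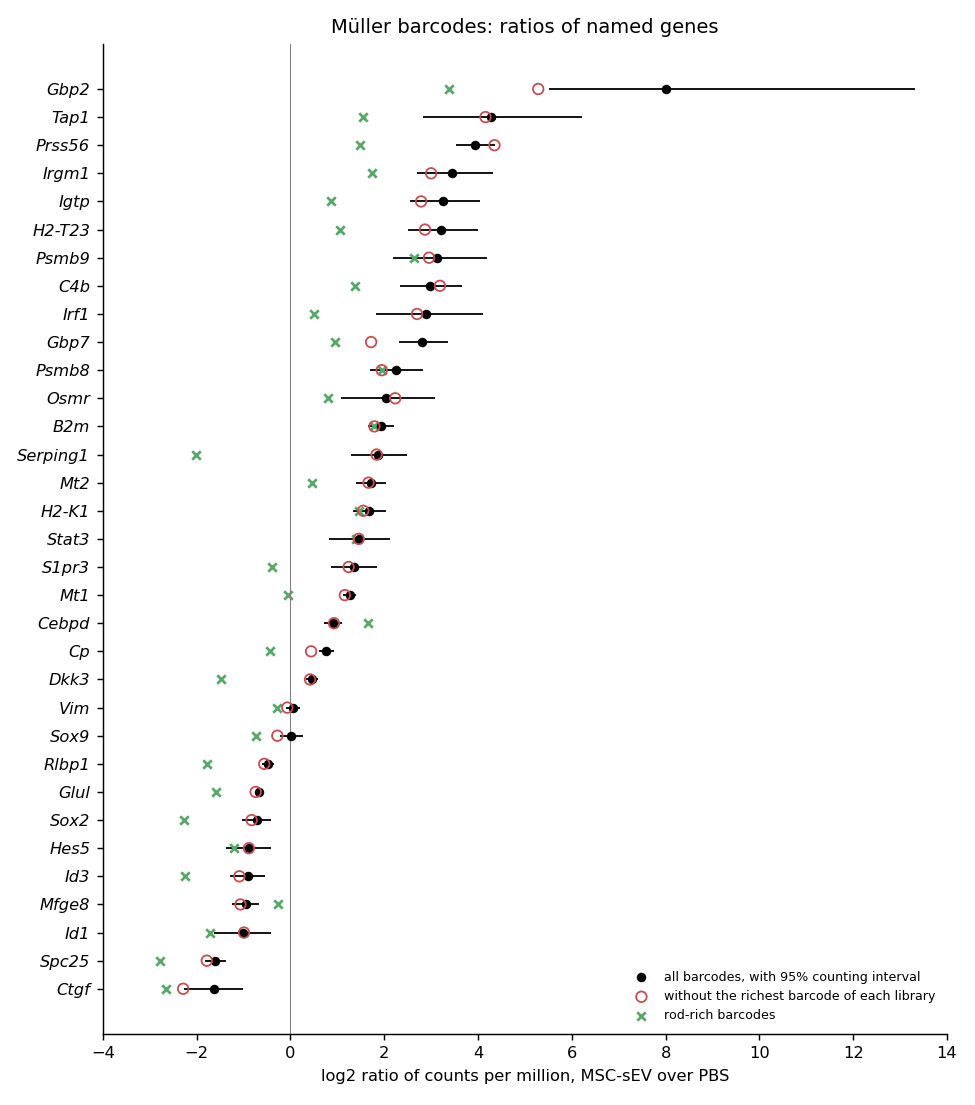
Log2 ratio of CPM, MSC-sEV over PBS, for 33 named genes in Müller barcodes. Black points with lines are all barcodes with the 95% counting interval. Open red circles leave out the gene's UMIs, but not the depth, of its richest barcode in each library. Green crosses are rod-rich barcodes. B2m, H2-K1 and Psmb8 have crosses close to the black points, while Prss56 and Igtp do not.

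The spread over single barcodes was wide. In the barcodes with at least 8000 UMIs, 31 in PBS and 17 in MSC-sEV, interferon genes made up 0.0184% to 0.397% of UMIs in PBS (median 0.0878%) and 0.0782% to 2.35% in MSC-sEV (median 0.227%). The libraries overlapped: 7 of the 17 MSC-sEV barcodes lay above the highest PBS barcode. MHC class I genes overlapped less, at 0.0556% to 0.185% in PBS (median 0.0995%) and 0.125% to 1.94% in MSC-sEV (median 0.238%), with 14 of 17 above the highest PBS barcode. Over all depths, 3 MSC-sEV barcodes held 46.4% of the 1774 interferon UMIs of the library, and the richest had 485 of its 20609 UMIs in this list, with all 7 rule genes, 134 UMIs of Glul and no Lcn2. In PBS the 3 richest barcodes held 21.1% of 731.

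**Figure D3:**
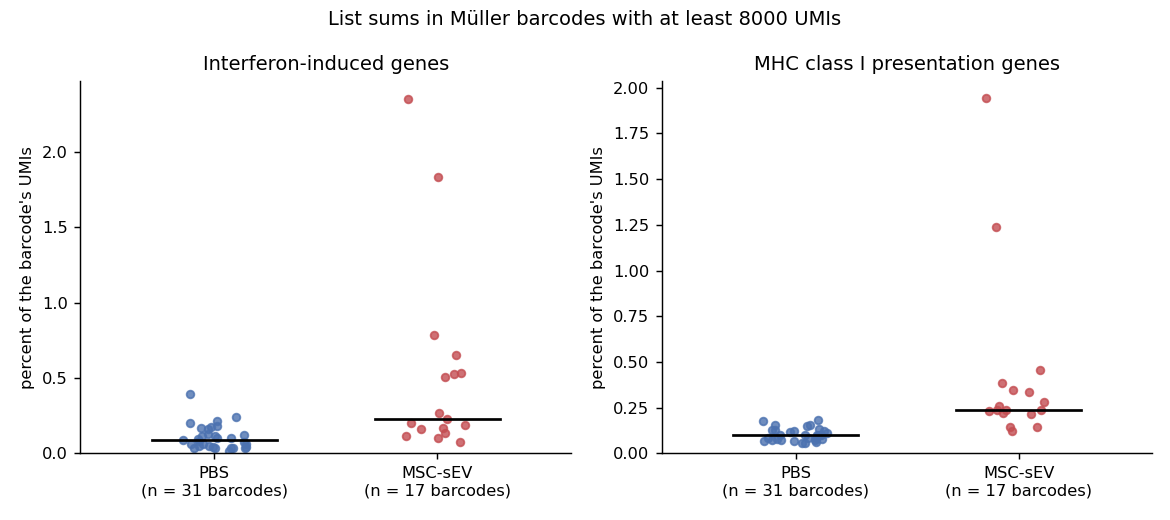
Percent of UMIs in 28 interferon-induced genes (left) and 16 MHC class I presentation genes (right) for each Müller barcode with at least 8000 UMIs, 31 in PBS and 17 in MSC-sEV. Each point is a barcode and each black bar a median; 7 MSC-sEV barcodes on the left and 14 on the right lie above every PBS barcode.

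The sequences before the start sites of these genes were searched for the letters that interferon-responsive factors bind. RefSeq (GRCm38.p6) gave promoters for 21 of 28 interferon genes, 14 of 16 MHC class I genes and 30 of 36 acute phase genes. The letters searched were GAAANNGAAA, the interferon response element, added after values were seen, then TTCNNNGAA, bound by STAT factors, TTGCNNAA, bound by C/EBP factors, and the NF-kB consensus, on both strands of the 250 bases before each start. Of 27025 promoters, 3.46% held the interferon response element, 8.13% STAT, 10.8% C/EBP and 5.62% NF-kB letters. The interferon promoters held the response element in 13 (61.9%), STAT letters in 6 (28.6%), NF-kB letters in 3 (14.3%) and C/EBP letters in 1 (4.76%). For MHC class I the response element was in 3 (21.4%), STAT letters in 2 (14.3%), NF-kB letters in 7 (50.0%) and C/EBP letters in 1 (7.14%). The acute phase promoters held them in 4 (13.3%), 3 (10.0%), 4 (13.3%) and 8 (26.7%), in the same order. A match is a string of letters, not a shown binding site. In the 4 promoters below, matches are in capitals: Igtp at chr11:58199306-58199555 (+ strand) has STAT letters starting 45 bases before the start and an interferon element at 34, Gbp7 at chr3:142530086-142530335 (+) has STAT letters at 106 and 87 and an interferon element at 53, B2m at chr2:122147437-122147686 (+) has an interferon element at 139 and NF-kB letters at 127, and Prss56 at chr1:87183064-87183313 (+) has STAT letters at 152. They belong to a GTPase, a guanylate binding protein, the class I light chain and Prss56, described next. Each of them holds a match, which not every promoter does. Those of Tap1, Psmb9 and Spc25 held none, and both starts of H2-K1 had NF-kB letters only.
Igtp: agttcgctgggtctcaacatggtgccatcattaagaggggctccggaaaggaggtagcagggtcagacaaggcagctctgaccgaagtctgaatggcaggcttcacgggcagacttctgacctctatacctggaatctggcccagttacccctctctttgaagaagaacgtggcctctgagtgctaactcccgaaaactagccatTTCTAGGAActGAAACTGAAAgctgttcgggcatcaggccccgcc
Gbp7: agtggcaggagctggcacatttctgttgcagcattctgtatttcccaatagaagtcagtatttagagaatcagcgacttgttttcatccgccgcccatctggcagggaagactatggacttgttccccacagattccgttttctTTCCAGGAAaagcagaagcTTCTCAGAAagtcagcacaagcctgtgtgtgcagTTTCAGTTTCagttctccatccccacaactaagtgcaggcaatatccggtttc
B2m: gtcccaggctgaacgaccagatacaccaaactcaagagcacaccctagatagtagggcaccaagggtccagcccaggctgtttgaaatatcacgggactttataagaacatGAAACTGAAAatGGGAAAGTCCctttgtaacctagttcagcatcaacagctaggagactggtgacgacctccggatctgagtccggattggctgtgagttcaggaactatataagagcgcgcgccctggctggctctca
Prss56: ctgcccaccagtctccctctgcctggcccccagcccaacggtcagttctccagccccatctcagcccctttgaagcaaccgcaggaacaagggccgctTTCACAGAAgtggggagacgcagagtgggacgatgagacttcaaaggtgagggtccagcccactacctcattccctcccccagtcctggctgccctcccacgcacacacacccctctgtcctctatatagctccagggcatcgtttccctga

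Prss56 encodes a secreted serine protease of Müller glia that is known for its part in eye size. It had 56 UMIs in PBS (92.5 CPM, 16 barcodes) and 525 in MSC-sEV (1407 CPM, 19 barcodes), a ratio of 15.2 (11.5 to 20.4), and 20.4 without the richest barcode of each library. In the barcodes with at least 8000 UMIs, with the pigment epithelium barcode left out, Prss56 ranged from 0 to 1664 CPM in PBS (median 0) and from 0 to 5565 in MSC-sEV (median 386). In MSC-sEV, 7 barcodes had more than 10 UMIs and 1 PBS barcode did, at 26, and the libraries overlapped below that. The rod-rich barcodes held 1.55 CPM in PBS and 4.29 in MSC-sEV.

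**Figure D4:**
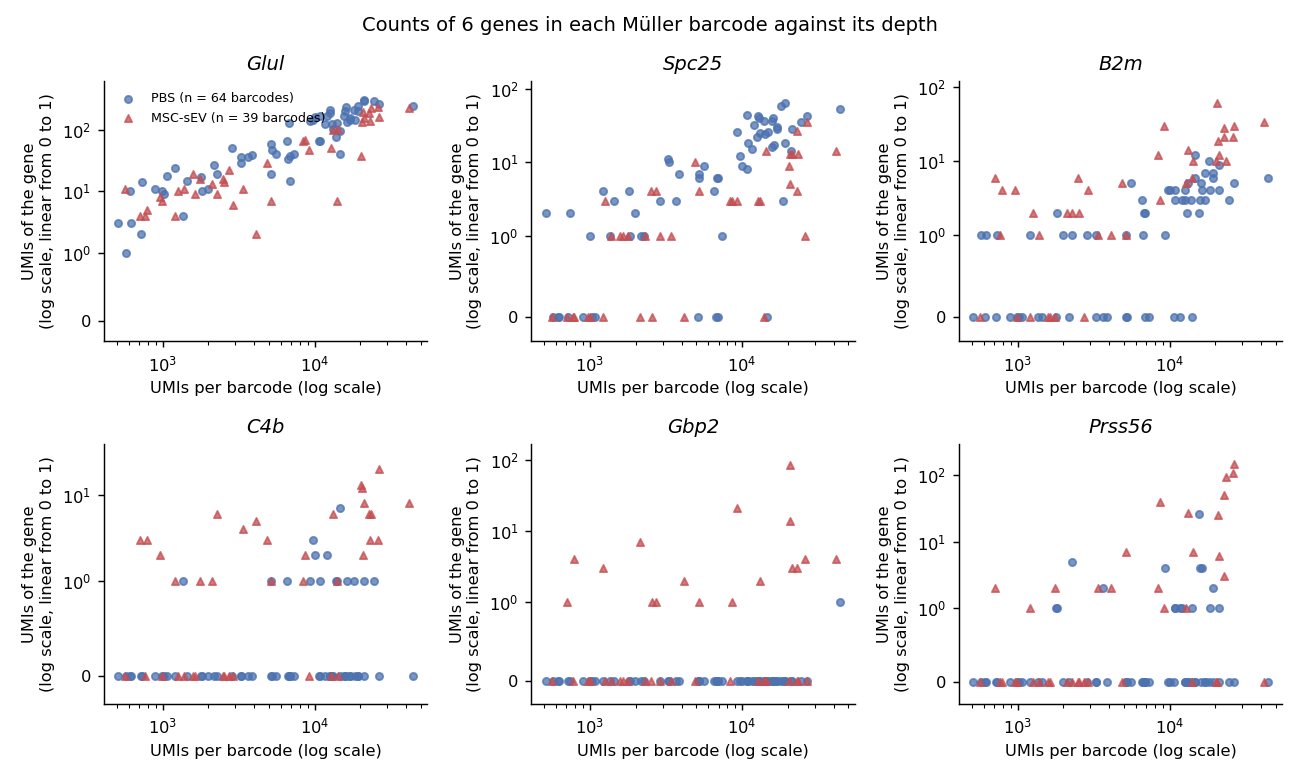
UMIs of 6 genes in each Müller barcode against the UMIs of that barcode, for 64 PBS (circles) and 39 MSC-sEV (triangles) barcodes; both axes are log scales, the vertical linear from 0 to 1. Glul and Spc25 lie lower in MSC-sEV at a given depth, B2m higher, and Gbp2 is seen in 17 MSC-sEV barcodes and 1 PBS barcode.

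Of 36 acute phase and reactive glia genes, 19 had at least 20 UMIs. All 19 were higher in MSC-sEV, 13 of them at least 2-fold, against 4.55% of all genes. The median log2 ratio was 1.35 over all Müller barcodes and 1.38 in rod-rich barcodes. C4b, the complement component that is raised in many reactive glia, had 25 UMIs over 15 PBS barcodes and 121 over 25 MSC-sEV barcodes, a ratio of 7.85 (5.07 to 12.6). Serping1, the inhibitor of the complement C1 proteases, had a ratio of 3.65 (2.44 to 5.57), with 2.16 and 0.537 CPM in rod-rich barcodes. Osmr, the receptor for oncostatin M, had 13 and 33 UMIs, a ratio of 4.12 (2.11 to 8.53), and Stat3, the transcription factor downstream of it, 2.75 (1.76 to 4.37). S1pr3, a receptor for sphingosine 1-phosphate, had a ratio of 2.55 (1.83 to 3.58).

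The metal-binding proteins encoded by Mt1 and Mt2 had ratios of 2.40 (2.18 to 2.64) and 3.27 (2.62 to 4.11), and Cp, the copper-carrying ferroxidase ceruloplasmin, went from 1036 to 1758 CPM, a ratio of 1.70 (1.52 to 1.90). Without the richest barcodes the ratio of Cp was 1.36. The filament gene Vim did not differ beyond counting error, with 1543 and 1611 CPM and a ratio of 1.04 (0.941 to 1.16), while Gfap, the filament gene of reactive astrocytes and Müller glia, had only 4 and 12 UMIs, a ratio of 4.87 (1.48 to 20.7). Several members rested on 1 barcode: C3, the central complement component, had 38 of 41 MSC-sEV UMIs in 1 barcode and Serpina3n, a protease inhibitor, 20 of 32. A2m, a protease-trapping protein, had 32 of 49 in the pigment epithelium barcode. Timp1, an inhibitor of matrix metalloproteinases, had 0 and 13 UMIs. Its ratio was 7.03 with PBS set at the floor of 3 UMIs over the group, with a counting interval that started at 4.95.

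Identity and homeostasis genes were close to level between libraries, with some lower. Of 24 further Müller identity genes, all measured, none was 2-fold higher and 1 was 2-fold lower, against 4.55% and 4.62% of all genes. Their median log2 ratio was -0.16. Glul had 6158 UMIs in the PBS and 2395 in the MSC-sEV library, or 10171 and 6420 CPM, so it was 1.58-fold lower in MSC-sEV (1.51 to 1.66). Barcodes with at least 8000 UMIs were also compared, with the pigment epithelium barcode left out. There Glul ranged from 2804 to 16622 CPM in PBS (median 10872) and from 1827 to 9620 in MSC-sEV (median 7316), so the libraries overlapped. Spc25, a kinetochore protein gene also used as a Müller marker, was 1582 CPM in PBS and 523 in MSC-sEV, 3.03-fold lower (2.59 to 3.55). Its median in the same deep barcodes was 1654 against 353. Rod-rich barcodes held less of both in MSC-sEV too: Spc25 went from 44.2 to 6.44 CPM there, a ratio of 0.146, and Glul had a ratio of 0.333. The median log2 ratio of the identity list in rod-rich barcodes was -1.28. Sox9 and Apoe were near level, with ratios of 1.01 (0.853 to 1.20) and 1.11 (1.07 to 1.15).

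Among the rule's own genes, which are given as a description only, Clu was 6947 CPM in PBS and 10736 in MSC-sEV, Dkk3 1733 and 2372, and Rlbp1 2618 and 1884. Of 12 glutamate and ammonia genes, 11 were measured and none differed 2-fold, against 4.55% of all genes higher and 4.62% lower. Slc1a2, a second glutamate transporter, had a ratio of 1.67 (1.39 to 2.01). Of the 12 measured water, ion and pH genes, only 1 was 2-fold apart, against the same shares of all genes. It was the chloride cotransporter Slc12a2, with 14 and 31 UMIs, a ratio of 3.59 (1.86 to 7.31).

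Of 26 Notch and progenitor genes, 16 were measured, 10 were lower in MSC-sEV and 1 was 2-fold lower, against 4.62% of all genes. The median log2 ratio was -0.20, and -1.36 in rod-rich barcodes. Sox2, a factor that keeps progenitor and glial identity, had a ratio of 0.607 (0.489 to 0.749). Hes5, a Notch target, had 0.541 (0.383 to 0.752), and Id1 and Id3, which block differentiation factors, 0.498 (0.322 to 0.751) and 0.532 (0.409 to 0.687). Nfib, of a family that restrains proliferation of Müller glia, went the other way, with 1.46 (1.21 to 1.78). Of 22 cell cycle genes, 5 were measured and none differed 2-fold, against 4.55% of all genes higher and 4.62% lower. The growth factor Tgfb2 had a ratio of 1.59 (1.34 to 1.88), and Pgf, a relative of the vascular growth factor, had 2 and 15 UMIs, a ratio of 12.2 (2.83 to 110).

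Further genes were lower in MSC-sEV outside these lists. Ctgf, a matricellular protein, was 3.08-fold lower (2.03 to 4.85), Armcx1, a mitochondrial transport protein, 4.01-fold (1.89 to 9.76), Mfge8, which marks dying cells for uptake, 1.94-fold (1.59 to 2.37), and Dio2, which activates thyroid hormone, 2.71-fold (1.53 to 5.11). The calmodulin-binding Pcp4 had 55 UMIs in 10 PBS barcodes and 1 in MSC-sEV, a log2 ratio of -5.08, and -3.90 with 1 barcode per group of copies, which include the 4 barcodes with Pcp2. Ptgds and Trf were 1.43-fold (1.01 to 2.01) and 2.33-fold (1.96 to 2.76) higher in MSC-sEV once the pigment epithelium barcode was left out. The log2 ratio of Ptgds over all barcodes turned to -0.21 when no C1q UMI was allowed.

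Lcn2 encodes lipocalin 2, an iron-sequestering acute phase protein. It was in few Müller glia. In MSC-sEV 5 of 39 barcodes had it (12.8%, 4.30% to 27.4%), with 163, 8, 3, 1 and 1 UMIs. In PBS 4 of 64 had it (6.25%, 1.73% to 15.2%), with 11 UMIs in the richest and 1 in each of the others. In rod-rich barcodes Lcn2 was seen in 1.99% in PBS and 4.32% in MSC-sEV, with at most 2 and 3 UMIs, so a single UMI is no sign of expression, and the 2 MSC-sEV barcodes with 163 and 8 UMIs and the PBS barcode with 11 stand above that level. The binomial intervals of the shares in the 2 libraries overlapped. The 14 UMIs in PBS and 176 in MSC-sEV gave a ratio of 20.4 (11.8 to 38.1), and 7.03 without the richest barcode of each library.

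Lcn2 was higher in MSC-sEV barcodes left out of the rule for their C1q. Among the 18 MSC-sEV barcodes with Müller markers and more than 2 C1q UMIs, 10 had Lcn2, with 3229 UMIs, or 4300 CPM, of which 2229 in 1 barcode. Among the 31 such PBS barcodes 4 had it, with 5 UMIs, or 7.11 CPM. The share of MSC-sEV Müller barcodes with Lcn2 moved with the C1q limit: it was 0% when no C1q UMI was allowed, and 30.6% when C1q could reach 0.05% of UMIs.

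**Figure D5:**
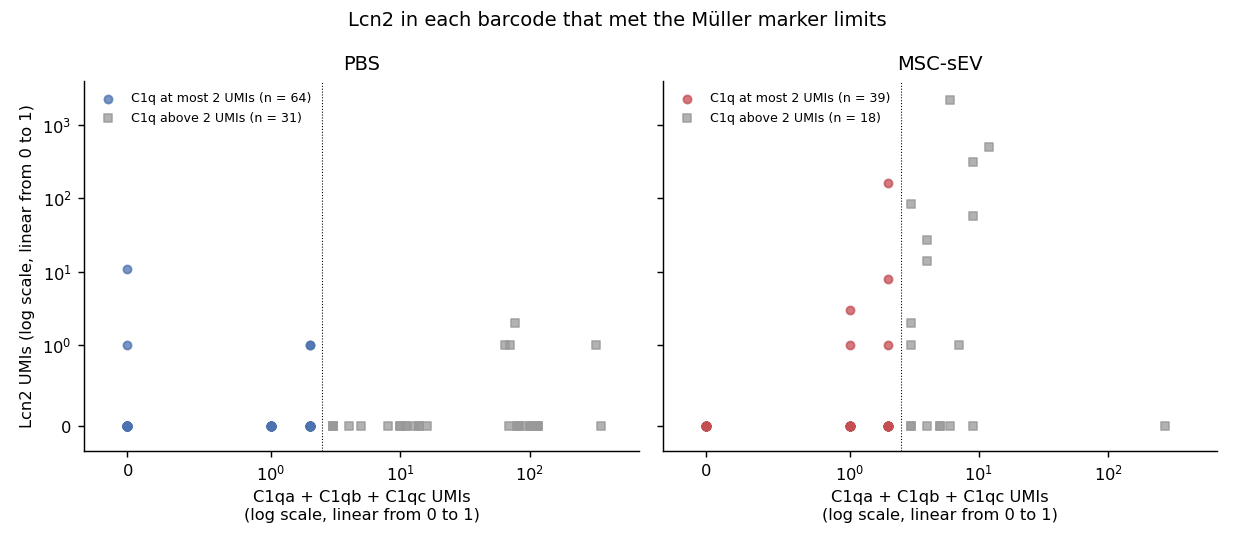
Lcn2 UMIs against the sum of C1qa, C1qb and C1qc UMIs in each barcode that met the Müller marker limits, PBS left and MSC-sEV right. Both axes are log scales, linear from 0 to 1, and the dotted line is the C1q limit; the MSC-sEV barcodes with the most Lcn2 lie to the right of it, apart from the one with 163 UMIs.

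Within MSC-sEV, the 5 barcodes with Lcn2 were set against the 34 without. The groups differed in depth: their medians were 13147 and 2802 UMIs, and every barcode with Lcn2 had at least 9216. Rod markers made up 0.338% of UMIs with Lcn2 and 1.56% without, and all 15 rod markers were lower with Lcn2, 14 of them at least 2-fold, against 10.9% of all genes at the minimum of 20 UMIs. Of 1259 genes with at least 50 UMIs, 31 (2.46%) were at least 2-fold higher with Lcn2 and 105 (8.34%) at least 2-fold lower. Since a deeper barcode is more likely to show any transcript, the choice of Lcn2 cells and depth cannot be told apart here.

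The acute phase list had 16 members with at least 20 UMIs in this comparison, 11 higher with Lcn2 and 5 lower, 4 at least 2-fold higher against 5.87% of all genes at that minimum. The median log2 ratio was 0.44, and -0.34 when every barcode was thinned to 1000 UMIs. Cp had 386 UMIs without Lcn2 and 270 with it, or 1326 and 3293 CPM, a ratio of 2.48 (2.12 to 2.91). By barcode the 5 with Lcn2 had 156, 24, 37, 22 and 31 UMIs of Cp, and the 156 were in the barcode with 163 UMIs of Lcn2. Without the richest barcode on each side the ratio of Cp was 1.19, but the depth kept in the totals lowers that value. With the barcode of 163 Lcn2 UMIs and the pigment epithelium barcode left out whole, it was 1.33 (1.07 to 1.64). The barcode with 163 Lcn2 UMIs held 20 of the 21 UMIs of Serpina3n and 38 of the 39 of C3 with Lcn2. It also held 55 of the 85 of Sox9, the glial transcription factor. The ratio of Sox9 was 2.24 (1.68 to 2.95) with that barcode and 1.00 without the richest barcode on each side. The barcode had 20247 UMIs, with 2 of C1q, 37 of Glul, 13 of microglial markers and none of the monocyte markers.

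Among the interferon genes, of 21 measured, 9 were higher and 12 lower with Lcn2, with a median log2 ratio of -0.05 against -0.05 over all genes. Gbp2 and Gbp7 were 1.65-fold (1.06 to 2.70) and 3.12-fold (1.80 to 5.84) lower with Lcn2, but 1 barcode without Lcn2 held 86 UMIs of Gbp2 and 102 of Gbp7. Without that barcode their log2 ratios were 0.63 and -0.20, so the direction of Gbp2 rested on it. B2m had a ratio of 1.13 (0.882 to 1.44), an interval that spans 1. The barcode with 163 UMIs of Lcn2 had none of Gbp2 or Prss56. Mt1 was 2.18-fold lower with Lcn2 (1.80 to 2.66), but higher, with log2 ratios of 0.79 and 0.88, when C1q could reach 0.05% of UMIs and with no C1q limit. Of 11 MHC class I genes, 10 were higher with Lcn2 and 1 at least 2-fold, Tapbp, which ties the class I chain to the peptide pump, at 2.94 (1.64 to 5.23), with 18 of its 24 UMIs in 1 barcode, against 5.87% of all genes. The log2 ratio of Tapbp was -1.57 when barcodes were thinned before the split and -0.20 when at least 2 Lcn2 UMIs were required. The class I median was 0.28, and -0.53 without the richest barcode on each side for each gene. With the depth kept in the totals, such medians fell for other lists too. That of the 7 rule genes went from 0.04 to -0.25.

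Likeness to Lcn2 was ranked by the lower bound of the ratio between the 2 sets of barcodes, over 39 barcodes of 1 library, and the first 10 genes are named. Most of the 5 barcodes with Lcn2 held no more of it than the highest rod-rich barcode of that library, at 3 UMIs. The median depths of the sets were 13147 and 2802 UMIs, so likeness to Lcn2 and to depth cannot be told apart here. The 10 genes were Kcnq1ot1, an imprinted nuclear RNA, at 5.10 (3.33 to 7.88), Gas1, a membrane protein that modulates hedgehog signals, at 3.73 (2.70 to 5.16), Cited2, a transcriptional cofactor, at 4.90 (2.70 to 9.04), Cp, Adamts5, a matrix protease, at 2.97 (2.01 to 4.38), and Meg3, Malat1, Sox9, Akap9 and Mycbp2, at 2.83, 1.88, 2.24, 2.72 and 2.63. Malat1, Meg3 and Kcnq1ot1 are RNAs kept in the nucleus. The rank used whether Lcn2 was present, not its amount: the barcode with 163 Lcn2 UMIs held 28 of the 56 UMIs of Kcnq1ot1 with Lcn2 and 17 of the 82 of Gas1, but 1 of the 29 of Cited2 and none of the 51 of Meg3. When barcodes were thinned before the split, Cited2 and Meg3 were lower with Lcn2, with log2 ratios of -1.51 and -1.16. Of the genes lower with Lcn2, Ptgds (25.8-fold) and Cst3 (4.09-fold) rested largely on the pigment epithelium barcode. It had no Lcn2 and held 1323 of the 1374 and 537 of the 785 UMIs without Lcn2. Other genes stayed lower when it was left out. Vtn (22.3-fold), Cyr61 (11.0-fold) and Slc24a1 (10.8-fold) then had ratios of 0.043, 0.087 and 0.098. These also rested in part on single barcodes without Lcn2, with 56 of 79 UMIs of Vtn and 94 of 153 of Slc24a1 in 1 barcode each. Without the richest barcode on each side, no UMI with Lcn2 was left for any of them. At the floor of 3 UMIs their ratios were then 0.463, 0.190 and 0.181. All 15 rod markers were lower with Lcn2 as well.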

How the data were processed

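The deposited files hold UMI counts per gene and barcode, made from 10x Chromium 3' libraries by alignment to mm10 in Cell Ranger 3.0.2 (labels' protocols and submitters' processing notes, per the labels); no annotation release is named there. Samples were grouped by treatment label. Barcodes were chosen by the rule the report opens with; the members and gene lists were chosen with earlier results of these data known. Counts were summed over barcodes per group and divided by their UMIs (CPM), and ratios carry exact conditional binomial intervals (95%) for counting error only; PCR copies are merged by UMI. There is 1 library per group, so no test was run and no p-value is given. A gene with no UMI was set to 3 UMIs. Named genes needed 50 UMIs, a UMI in at least 10% of barcodes of the higher group, and ranked among the top 20 or bottom 10 on the interval bound nearest 1, apart from mitochondrial, ribosomal, Xist, Tsix, Y-linked, rule and cell type marker genes, plus members of the lists. Rod-rich barcodes had at least 5 of 10 rod genes and 1% of UMIs in them. Scrublet marked 0.223% and 0.258% of barcodes as doublets, which is too few to have worked, so none was removed. Coordinates are from GENCODE M21 (30934 of 31053 genes matched) and RefSeq GRCm38.p6. The interval code was tested on simulated data. Software: Python 3.11.15, NumPy 2.4.6, SciPy 1.17.1, pandas 2.3.3, Scanpy 1.11.5 and Matplotlib 3.10.9. Alternatives changed the C1q limit, marker limits, depth, weighting, thinning and count minimum.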

Additional observations from a re-analysis of the deposited data

Results flagged for a closer look

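Both results come from barcodes that the comparisons above do not use: those with Müller markers and more than 2 C1q UMIs, 18 in MSC-sEV and 31 in PBS. Their Lcn2 was 4300 CPM in MSC-sEV, above the 7.11 CPM of the PBS barcodes. Their Serpina3n, an acute phase protease inhibitor, was 321 CPM in MSC-sEV, with 241 UMIs against 1 in PBS. The 31 PBS barcodes came down to 12 with 1 barcode kept per group of near copies, and the 18 MSC-sEV barcodes all stayed.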

How the results depend on the processing

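The share of Müller barcodes in MSC-sEV relative to PBS was 0.280 to 0.481 under 13 alternatives, and the acute phase median between libraries was 0.985 to 1.81 under 17. The numbers of genes 2-fold apart moved more. Genes higher and lower in MSC-sEV were 22 and 28 with no C1q UMI allowed, 394 and 120 with C1q up to 0.05% of UMIs, 438 and 154 with no C1q limit, 232 and 366 with each barcode weighted equally, 11 and 6 after thinning to 1000 UMIs, 313 and 318 at a minimum of 20 counts and 39 and 11 at a minimum of 100. In the Lcn2 comparison, genes higher were 107 with C1q up to 0.05%, 122 with no C1q limit, 81 with equal weights, 1 after thinning, 75 when split after thinning, 200 and 9 at the 2 minimums, and 17 without barcodes whose rule genes are outnumbered by the markers of another cell type. Genes lower were 54 with rod markers at most 2%, 54 without outnumbered barcodes, 9 after thinning, 283 when split after thinning, 371 and 41 at the minimums, and 223 when at least 2 Lcn2 UMIs were required. The acute phase median with Lcn2 turned to -0.34 after thinning and was 0.17 to 0.79 under 19 others. The share with Lcn2 was 0% with no C1q UMI, 30.6% with C1q up to 0.05%, 29.4% at 8000 UMIs or more and 3.03% after thinning. With no C1q UMI allowed, no MSC-sEV barcode had Lcn2 and that comparison could not be made.

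Single genes that changed direction (log2) between libraries were Ptgds, -0.21, and Mir124a-1hg, the host of a neuronal microRNA, 1.38, with no C1q UMI, and with C1q up to 0.05% Mir124a-1hg, 0.044, Chgb, a neuronal granule protein, 0.71, Isg15, -0.64, Ifit1, -0.54, and Ifit3, -1.30. With no C1q limit Isg15, Ifit1 and Ifit3 were -0.35, -0.14 and -0.89. With Lcn2 they were, at C1q up to 0.05%, Meg3, -0.060, Mt1, 0.79, and Cst3, 0.34, with no limit Mt1, 0.88, Cst3, 0.33, and Cyr61, a matricellular protein, 0.12, when split after thinning Cited2, -1.51, Meg3, -1.16, and Tapbp, -1.57, with at least 2 Lcn2 UMIs Tapbp, -0.20, and without the barcode richest in Gbp2 that gene, 0.63. The cause was not tested. Of 990 values of named genes between libraries, 811 stayed within the gene's counting interval, 169 left it, and 10 are the changes of direction above, counted for genes at least 2-fold apart. The alternatives that left out the pigment epithelium barcode, outnumbered barcodes, shallow barcodes, near copies, the C1q limit or the barcode richest in Lcn2 or in Gbp2 were chosen after seeing the data. No paired analysis was possible because each condition is 1 library. Depth limits the genes under 20 UMIs, and 1 library per condition limits all of it.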

Other observations

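The barcodes with Müller markers and more than 2 C1q UMIs also held more UMIs of reactive genes in MSC-sEV. Their summed depth was 702851 UMIs for PBS and 750850 for MSC-sEV. From PBS to MSC-sEV, Cp, the ferroxidase, went from 162 to 1617 UMIs, C3, the central complement component, from 0 to 491, Timp1, the metalloproteinase inhibitor, from 2 to 122, Gfap, the glial filament, from 0 to 138, and C4b, a complement component, from 17 to 217. Prss56, the secreted protease, had a ratio of 8.83 there, and Gbp2, the guanylate binding protein, 1.16, with 55 of its 62 PBS UMIs in 1 barcode. These MSC-sEV barcodes had a median of 39516 UMIs and a median of 5 C1q UMIs, and those of PBS 12915 and 69.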
